A study of Homo sapiens with 16 samples.

Results

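The luminal estrogen receptor programme was represented by 10 genes, ESR1, PGR, GATA3, FOXA1, XBP1, TFF1, GREB1, KRT8, KRT18 and AGR2, out of 20037 protein-coding genes. They were chosen by name, as genes that mark luminal breast cells or respond to estrogen. The window of a gene was its RefSeq span on GRCh38 with 10 kb added on either side. The windows of KRT8 and KRT18 overlapped, so the 10 genes gave 9 merged windows covering 1.03 Mb, against 1487 Mb for the merged windows of all protein-coding genes.

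In luminal breast cells the estrogen receptor is a ligand-activated transcription factor that works with FOXA1, which opens chromatin, and with GATA3. Together they drive estrogen-response genes such as TFF1, GREB1 and PGR, and luminal cells carry the simple keratins KRT8 and KRT18. NF-κB is a family of dimeric factors with a canonical arm, in which RELA acts, and a noncanonical arm, in which RELB pairs with the processed product of NFKB2, and crosstalk between NF-κB and the estrogen receptor has been described in breast cancer cells.

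Binding was profiled by ChIP-seq (chromatin immunoprecipitation and sequencing) in T47D, an established estrogen receptor-positive breast cancer line described as Luminal A. Knockdown cells had been transduced with lentiviral shRNA against DAB2IP, which encodes a RasGAP, and control cells, per the labels, with an empty vector (the study describes scrambled shRNA as the control of another T47D assay), and all cells had gone through puromycin selection. Antibodies against RELA (p65), RELB and NFKB2 gave 12 libraries in 6 groups of 2, each with its own peak list, and 4 input libraries served as background for the peak calls. The RELA, RELB and NFKB2 libraries that share a condition and a replicate number also share an input and are called a preparation below, so there were 4 preparations. The sources do not say which shRNA was used for these libraries, whether the cells were 1 clone, or whether replicates came from separate cultures, so the spread between libraries may be technical. Peak lists hold no expression, so neither the luminal identity of the cells nor the activity of these genes in them was checked here.

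Of 6175350 peaks listed on the autosomes and the X and Y chromosomes, 1887 overlapped a luminal window. The lists of knockdown RELA replicate 1 and knockdown RELB replicate 1 stood apart, with 105534 and 75078 peaks, while the other 10 held 517650 to 708764. Numbers are therefore given both as peaks and as peaks per 100000 listed peaks of the same library. All antibodies and conditions gave weak peaks in the luminal windows: every one of the 1887 had a q of 1 (−log10 q of 0), where q is the peak caller's p adjusted for multiple testing.

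The 250 bases before 4 RefSeq transcription starts are shown as examples. Each of these starts either had a peak nearby or carried an NF-κB motif, and other starts with a peak are not printed. They are printed 5′ to 3′ on the strand of the gene, from RefSeq on GRCh38.p14, and capitals mark a match to the 10-base NF-κB consensus. All of them lie just outside the span of their gene. They are AGR2 at chr7:16805000-16805249 (minus strand), ESR1 at chr6:151656422-151656671 (plus strand), GATA3 at chr10:8045083-8045332 (plus strand) and PGR at chr11:101129814-101130063 (minus strand).
AGR2: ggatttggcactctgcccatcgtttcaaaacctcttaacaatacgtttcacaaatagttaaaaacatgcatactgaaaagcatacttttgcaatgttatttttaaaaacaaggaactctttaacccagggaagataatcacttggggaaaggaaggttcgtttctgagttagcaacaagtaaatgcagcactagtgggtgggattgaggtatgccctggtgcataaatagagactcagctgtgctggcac
ESR1: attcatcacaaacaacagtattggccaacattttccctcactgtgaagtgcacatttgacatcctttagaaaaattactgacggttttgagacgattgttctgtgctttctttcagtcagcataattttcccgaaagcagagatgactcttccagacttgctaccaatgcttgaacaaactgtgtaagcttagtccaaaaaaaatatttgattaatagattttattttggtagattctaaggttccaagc
GATA3: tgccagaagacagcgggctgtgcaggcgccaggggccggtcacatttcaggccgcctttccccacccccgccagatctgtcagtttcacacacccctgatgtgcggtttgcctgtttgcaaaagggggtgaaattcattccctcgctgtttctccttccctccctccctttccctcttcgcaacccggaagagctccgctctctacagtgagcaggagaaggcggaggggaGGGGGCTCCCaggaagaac
PGR: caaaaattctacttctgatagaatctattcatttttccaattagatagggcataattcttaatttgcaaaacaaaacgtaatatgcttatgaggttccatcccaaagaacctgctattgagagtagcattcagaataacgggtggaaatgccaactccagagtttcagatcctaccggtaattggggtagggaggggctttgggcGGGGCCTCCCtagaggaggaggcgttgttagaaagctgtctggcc

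The promoter table held 20 intervals for 7 of the 10 genes (ESR1, PGR, GATA3, FOXA1, XBP1, KRT8 and AGR2), each running from 250 bases before to 50 bases after a start. TFF1, GREB1 and KRT18 had no entry. The NF-κB consensus was found on either strand of the 250 bases in 2 of the 20, at the GATA3 and PGR starts printed above, and in 11.3% of the 22199 intervals of all genes. The palindromic estrogen response element consensus and the forkhead core TGTTTAC, searched on both strands in the same way, were found in 0 of the 20, and in 0.0270% and 2.45% of all intervals. In GATA3 the NF-κB match began at position −19 relative to the start, and 0 of 12 libraries had a peak over that interval. In PGR it began at −45. Over the PGR interval, control RELA replicate 1 had a peak that covered the match (chr11:101129660-101129997), while the peak of knockdown RELA replicate 2 (chr11:101129612-101129810) ended before the printed bases. The motif search is a description of letters and not of binding.

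A peak overlapped 12 of the 20 luminal promoter intervals in at least 1 library, where 56.7% of all intervals had one. In at least 4 libraries it was 2 of 20, against 2.23% of all intervals, and these were AGR2 and an ESR1 start inside the gene (interval chr6:151807432-151807731). AGR2 encodes a protein disulfide isomerase of the endoplasmic reticulum that is estrogen-responsive. Its interval was called in knockdown RELA replicate 2, knockdown RELB replicate 2, knockdown NFKB2 replicate 2 and control NFKB2 replicate 2. The strongest of these peaks, at chr7:16805206-16805471 in control NFKB2 replicate 2, had a fold enrichment of 3.35, a −log10 p of 3.99 and 7 fragments at its summit. The others had fold enrichments of 1.80 to 2.16 and lay from 16804836 to 16805253. The peak of knockdown RELB replicate 2 (16805107-16805253) overlapped the strongest peak. Those of knockdown RELA replicate 2 (16804836-16804982) and knockdown NFKB2 replicate 2 (16804878-16805024) overlapped each other. No position was shared by all 4 libraries. The inner ESR1 start was called in both knockdown RELB libraries, in knockdown NFKB2 replicate 1 and in control NFKB2 replicate 2, with fold enrichments of 1.72 to 2.88. The start printed above for ESR1 was called in 2 libraries, knockdown RELB replicate 2 and knockdown NFKB2 replicate 2, with fold enrichments of 2.06 and 1.76.

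The first question was whether these loci were called more often than other genes. In mean peak number they were not: 2 of the 10 genes, FOXA1 and XBP1, had a mean peak number over 12 libraries above the median of the 200 protein-coding genes nearest in window length, where 50% of all genes do. With each library scaled to the length of its list before averaging, 4 were above (also PGR and AGR2), and 2 again when the short lists were left out. The density of peaks in the luminal windows over that in all protein-coding windows was 0.901 as a geometric mean, a log2 ratio of −0.15 ± 0.19 (SD, n = 12 libraries). It was below 1 in 10 of 12 libraries and ran from 0.638 in control RELA replicate 2 to 1.06 in knockdown NFKB2 replicate 2. The libraries above 1 were both of the knockdown NFKB2 group. Without ESR1, whose window is the longest, the mean log2 ratio was −0.30.

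**Figure D1:**
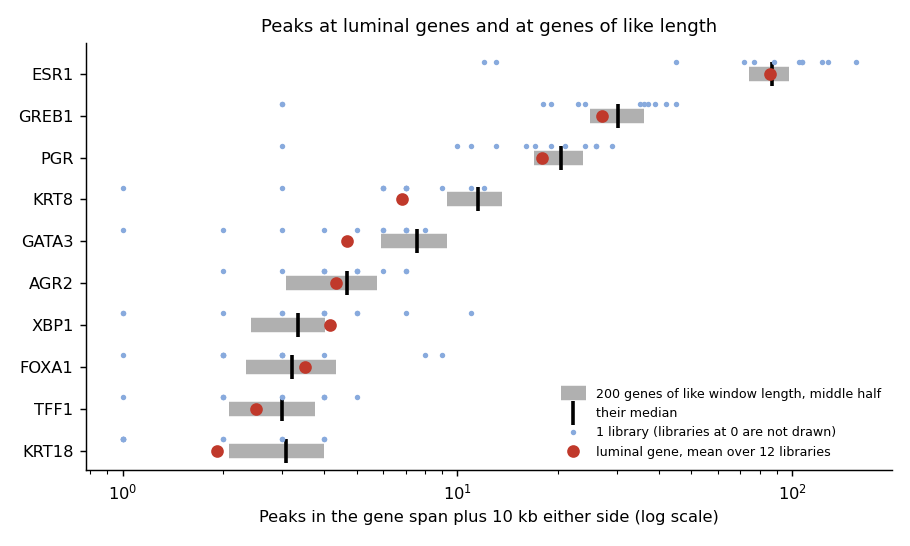
Peaks in the window of each luminal gene (horizontal axis, log scale), ordered by window length, with the mean over 12 libraries as a red point, single libraries as small points, and the median and interquartile range of 200 genes of like length as a black line and a grey bar. FOXA1 and XBP1 lay above the median of their like-length genes, with XBP1 also above its grey bar, and the means of KRT8, GATA3 and KRT18 lay below theirs.

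Among the receptors and transcription factors, ESR1, the estrogen receptor gene, had 86.0 ± 44.6 peaks per library (mean ± SD, n = 12, as for the values that follow) against a like-length median of 87.0, and 103 of the 200 like-length genes were higher. The ESR1 window is 493 kb long and held 1032 of the 1887 luminal peaks. These SDs span antibodies, conditions and list lengths, and the short lists held 12 and 13 ESR1 peaks. PGR, the progesterone receptor gene and an estrogen target, had 17.9 ± 7.76 peaks against a median of 20.3. GATA3, a zinc finger factor of luminal differentiation, had 4.67 ± 2.64 against 7.58, and 174 of 200 were higher. It was above the like-length median of the same library in 0 of 12 libraries and below it in 11.

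FOXA1, a forkhead factor that opens chromatin for the estrogen receptor, had 3.50 ± 2.47 peaks against 3.21, and 81 of 200 genes were higher. XBP1, a factor of the unfolded protein response that estrogen induces, had 4.17 ± 2.76 against 3.33, and 41 of 200 were higher. XBP1 was above the median of its own library in 8 of 12 libraries and below it in 2. FOXA1 was above the median in 4 libraries and below it in 4. Scaled to list length, FOXA1 had a mean of 0.812 peaks per 100000 listed peaks against a like-length median of 0.654, and XBP1 0.860 against 0.629.

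Of the estrogen targets, TFF1, a secreted trefoil peptide, had 2.50 ± 1.62 peaks against a median of 3. GREB1, a cofactor of the estrogen receptor, had 27.0 ± 14.3 against 30.1, and AGR2 had 4.33 ± 2.02 against 4.67. Their scaled means were 0.496 against 0.606 for TFF1, 4.94 against 6.05 for GREB1 and 0.934 against 0.886 for AGR2. AGR2 was above its median only when scaled with the short lists kept. Without those lists its scaled mean was 0.855 against 0.895.

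The keratins had few peaks for their length. Most of the KRT18 window lies inside the KRT8 window, so their peaks are not separate counts. KRT8 had 6.83 ± 3.01 against a like-length median of 11.5, and 186 of 200 genes were higher. KRT18 had 1.92 ± 1.31 against 3.08, and 155 of 200 were higher. The 4052 bp span of KRT18 itself held 0 summits and 0 peaks in all 12 libraries. That was also so for 16 of 200 genes of like span (8%, with a median of 6 summits over the 12 lists), so every peak counted for KRT18 came from the added 10 kb on either side.

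Per length and per 100000 listed peaks, which puts the libraries on 1 scale, PGR had 3.38 ± 1.92 peaks per 100 kb (mean ± SD, n = 12), XBP1 3.30 ± 1.64, ESR1 3.28 ± 0.776 and FOXA1 3.16 ± 2.09. AGR2 had 2.82 ± 1.96 and GREB1 2.75 ± 0.776 on this scale. KRT8 (2.08 ± 1.20), TFF1 (2.04 ± 1.31), GATA3 (1.69 ± 0.778) and KRT18 (1.61 ± 1.18) were lowest. For every neighbouring pair in this order, the mean difference within libraries was smaller than its SD. GREB1 and KRT8 differed most, by 0.669 ± 1.53, with GREB1 higher in 10 of 12 libraries. The highest values of PGR (8.67), AGR2 (8.03), FOXA1 (7.37), KRT8 (5.50) and KRT18 (3.94) came from the short lists. The order of the genes therefore rests in part on those lists. In peaks per 100 kb with no scaling to list length, the genes ran from 7.97 at KRT18 to 17.4 at ESR1. The median on that unscaled measure over the 10 genes was 13.3 per 100 kb, against 15.01 over all protein-coding genes.

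The other lists lay close by. The median was 12.4 for 25 other estrogen-response genes, 13.5 for 15 other luminal genes, 12.7 for 20 basal and mesenchymal genes and 13.2 for 20 genes of other tissues such as liver, muscle and blood. Above their own like-length medians were 8 of 25, 6 of 15, 8 of 20 and 7 of 20 genes. Among the estrogen-response genes the range ran from 5.11 at IGFBP4 to 24.7 at SLC39A6. The 10 luminal genes and the genes of other tissues thus had nearly the same median density of peaks.

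At least 1 peak was found for all 10 genes in 9 of the 10 longer lists and for 9 genes in the other, control NFKB2 replicate 2. Among all genes, the share with a peak was 95.9% in knockdown RELA replicate 2, and 94.3% and 95.3% in the RELA controls. It was 93.2% in knockdown RELB replicate 2, and 95.3% and 94.3% in the RELB controls. For NFKB2 it was 95.3% and 94.7% in the knockdown and 95.5% and 93.6% in the control libraries. Nearly every gene, luminal or not, had a peak in these lists. In the short lists it was 9 of 10 in knockdown RELA replicate 1 (70.9% of all genes) and 7 of 10 in knockdown RELB replicate 1 (65% of all genes). ESR1, PGR, FOXA1, XBP1, GREB1 and KRT8 had a peak in all 12 libraries, as did 50.3% of all genes. AGR2 lacked a peak only in knockdown RELA replicate 1, and GATA3 and KRT18 only in knockdown RELB replicate 1. TFF1 lacked one in knockdown RELB replicate 1 and in control NFKB2 replicate 2.

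**Figure D2:**
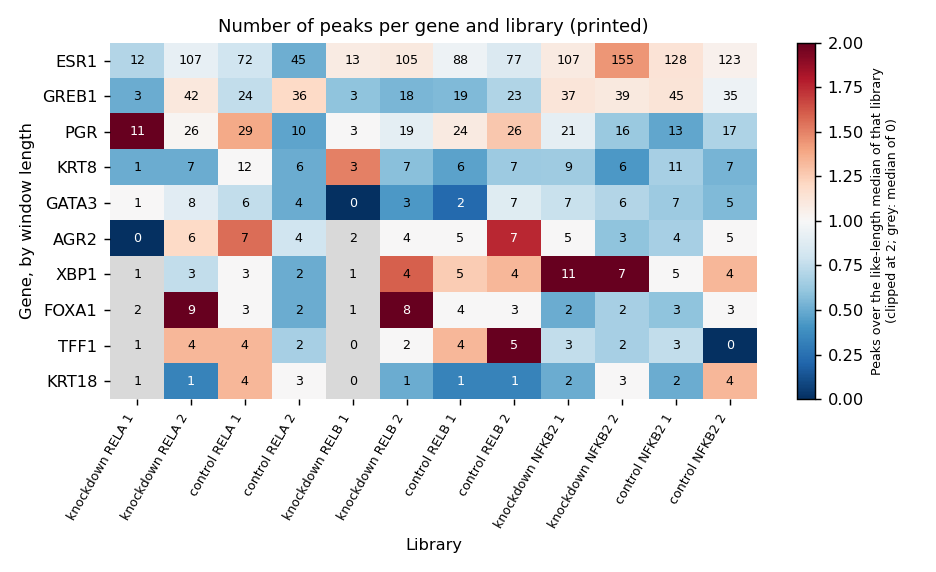
Number of peaks (printed) for each luminal gene (rows, by window length) in each of the 12 libraries (columns), coloured by the ratio to the median of 200 like-length genes in the same library, with red above 1, blue below 1 and grey where that median was 0. GATA3 was never above 1, and PGR in knockdown RELA replicate 1 held 11 of the 32 luminal peaks of that library.

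The peaks rested on few fragments. Fold enrichment and p together fix how many fragments lay at a summit, and these numbers came out whole in 10 libraries; in the other 2, the short lists, no number was whole and none is given. Of 1829 luminal peaks, 33.5% had 3 fragments at the summit, 23.9% had 2 and 23.3% had 4, and the most was 8. The share of luminal peaks with a −log10 p of at least 3 was 5.94% to 19.2% per library, against 8.46% to 13.9% of the peaks in all protein-coding windows. The 19.2% was 5 of 26 peaks in knockdown RELB replicate 1, a short list. None of the 10 genes had a peak at a q of at most 0.05 in any library, where 0.898% of all genes did, and none had one with a q below 1, where 11.6% did.

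The strongest ESR1 peak, which also had the smallest p of all luminal peaks, was at chr6:152088994-152089465 inside the gene, in knockdown NFKB2 replicate 2, with a fold enrichment of 4.28, a −log10 p of 5.33 and 6 fragments. No other library had a peak that overlapped it. The strongest GREB1 peak, at chr2:11520648-11520811 in control RELA replicate 1, had a fold enrichment of 4.21, a −log10 p of 5.31 and 7 fragments, and it too was called in 1 library. The strongest peak in the windows of KRT8 and KRT18 was the same peak, at chr12:52954371-52954525 beyond the end of both spans, in control RELB replicate 2, with 8 fragments. The strongest peaks of the other 6 genes had a −log10 p of 3.09 (GATA3) to 4.42 (AGR2), and each was called in at most 2 libraries.

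Positions were seldom called again. Peaks of the 12 libraries that shared at least 1 bp were merged, which gave 1204 luminal regions. Merging can chain peaks, so the libraries of a region need not all share a base. Of these, 70.8% were called in 1 preparation, 24.3% in 2, 4.32% in 3 and 0.498% in all 4. For all protein-coding windows the shares were 68.8%, 23.04%, 6.93% and 1.23%. A call in at least 3 preparations was seen for 58 luminal regions, or 4.82%, against 8.17% of all regions, and a call in at least 6 libraries for 5, or 0.415%, against 1.21%. Peaks from libraries of the same preparation share an input, so the preparation and not the library was counted.

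**Figure D3:**
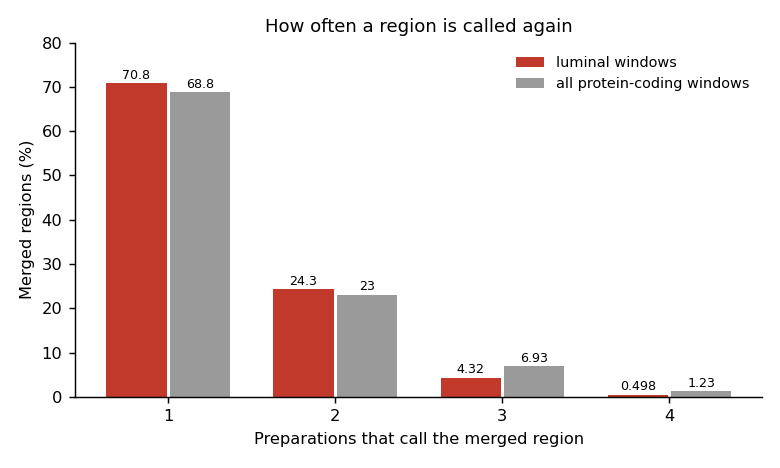
Share of merged regions (vertical axis, percent) called in 1, 2, 3 or 4 preparations, for the luminal windows in red and all protein-coding windows in grey. Regions of 3 and 4 preparations made up 4.32% and 0.498% in the luminal windows, against 6.93% and 1.23% in all windows.

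The 6 luminal regions called in all 4 preparations were 3 in GREB1 and 3 in ESR1, and all 6 lay inside the gene span. The GREB1 region chr2:11483028-11483885 began 140 bp inside the low-coordinate end of the gene and was called in 6 libraries, with fold enrichments of 1.66 to 2.54. The region called most often, chr2:11607840-11609098 in GREB1, was found in 9 libraries, all those of both knockdown preparations and of control replicate 1, and in none of control replicate 2. Its fold enrichments were 1.71 to 3.35, with at most 5 fragments. In ESR1 the most recurrent regions were called in 6 libraries, among them chr6:151720623-151722100. PGR, XBP1, KRT8 and TFF1 had 7, 3, 2 and 1 regions in at least 3 preparations, and GATA3, FOXA1, KRT18 and AGR2 had 0. ESR1 and GREB1, which had the recurrent regions, also had the most merged regions of any kind, 640 and 210.

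Summits were a little denser in the gene spans than in the flanks. The luminal spans held 15.6 summits per 100 kb and library and the flanks 12.96, a ratio of 1.21, and over all protein-coding genes the values were 17.1 and 14.5, a ratio of 1.18. The genes differed in this: GREB1 and PGR had more in the flanks (19.6 against 14.4, and 17.5 against 14.4), while KRT8 had more in the span (9.97 against 7.08). ESR1 was nearly even, at 17.5 in the span and 17.1 in the flanks.

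The next question was whether the DAB2IP knockdown changed the luminal share of each list. With RELA, the knockdown libraries had 30.3 and 30.8 luminal peaks per 100000 listed peaks, and the control libraries 30.5 and 21.6. The groups overlapped, and control RELA replicate 2 was the low library. The log2 ratio of knockdown over control was 0.25, and without control RELA replicate 2 it was 0.00089. With RELB, the values were 34.6 and 30.8 in the knockdown and 28.2 and 30.3 in the control, and the log2 ratio was 0.16. The RELB groups did not overlap, but the gap between the nearest libraries was smaller than the SD of either group (2.73 and 1.502), and without knockdown RELB replicate 1, a short list, the ratio was 0.075. In peaks with no scaling, the RELB libraries held 26 and 170 in the knockdown against 157 and 159 in the control, and overlapped.

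With NFKB2, the values were 35.1 and 35.4 in the knockdown and 30.9 and 29.8 in the control, and the log2 ratio was 0.22. Both knockdown libraries were higher on this scale, and the difference of the means was larger than the SD of either group (0.164 and 0.809, n = 2). An SD of 2 libraries is a rough measure of spread. In peaks with no scaling, the NFKB2 libraries held 202 and 236 in the knockdown against 219 and 201 in the control, and overlapped. Over the 4 preparations, as geometric means over the 3 antibodies, the knockdown values were 33.3 and 32.2 and the control values 29.8 and 26.9, a log2 ratio of 0.21. Scaled to the peaks in all protein-coding windows instead, the log2 ratios were 0.26 (RELA), 0.16 (RELB), 0.21 (NFKB2) and 0.21 (preparations). The separation of knockdown from control with RELB, with NFKB2 and over preparations rested on ESR1. Without ESR1 the log2 ratios per listed peaks were 0.20 (RELA), 0.038 (RELB), 0.22 (NFKB2) and 0.15 (preparations), and knockdown and control overlapped in each. With ESR1 kept, the size of the NFKB2 ratio depended on which peaks were kept. It was 0.90 at a −log10 p of at least 3 and 1.16 with the 20000 smallest p-values of each list, where RELA and RELB were at −0.71 and −0.15. Few luminal peaks remained in such settings. At a −log10 p of at least 3 the NFKB2 libraries held 27 and 29 in the knockdown and 13 and 15 in the control. With 2 against 2 the smallest two-sided p of an exact permutation test is 0.333, so no such difference could pass 0.05 by that test, and no p is given for these sums.

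**Figure D4:**
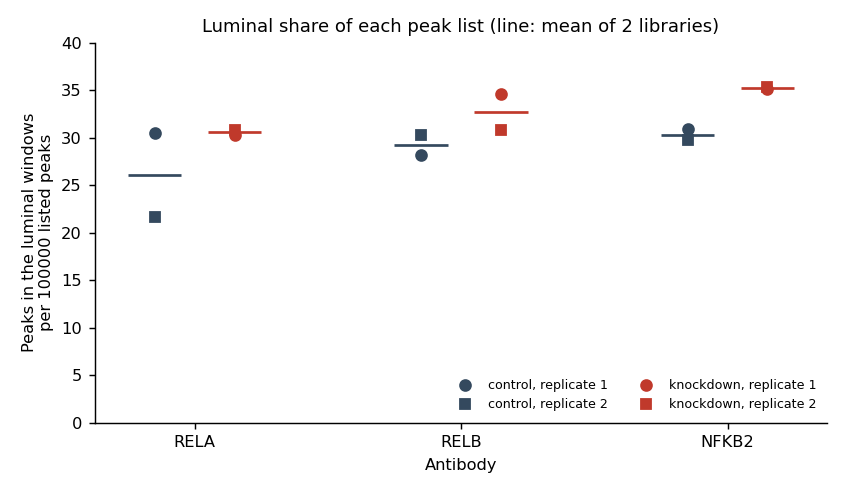
Peaks in the luminal windows per 100000 listed peaks (vertical axis) for each library, by antibody and condition, with the mean of 2 libraries as a line. The knockdown libraries lay above the controls for NFKB2, while the RELA groups overlapped and control RELA replicate 2 was lowest, at 21.6.

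Gene by gene, both knockdown libraries were above both controls per 100000 listed peaks for 1 of the 10 genes with RELA (11.8% of all genes), 2 with RELB (12%) and 2 with NFKB2 (17%). Both controls were above both knockdown libraries for 1 gene with RELA (20.3% of all genes), 2 with RELB (20.6%) and 1 with NFKB2 (13.5%). The members' counts were near these backgrounds.

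ESR1 was above the controls with RELB, at 17.3 and 19.0 against 15.8 and 14.7 per 100000, and with NFKB2, at 18.6 and 23.2 against 18.1 and 18.2. In peaks, ESR1 had 13 and 105 against 88 and 77 with RELB, where the 13 came from the short list, and 107 and 155 against 128 and 123 with NFKB2, where the numbers overlapped. XBP1 with NFKB2 had 11 and 7 knockdown peaks against 5 and 4 control peaks, 1.91 and 1.05 against 0.705 and 0.592 per 100000, and did not overlap on either scale. No XBP1 promoter interval was called with NFKB2, so these peaks lay elsewhere in its window.

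FOXA1 was above the controls with RELA, at 1.90 and 1.31 against 0.569 and 0.386 per 100000, and with RELB, at 1.33 and 1.45 against 0.718 and 0.572. These rested on few peaks, 2 and 9 against 3 and 2 for RELA and 1 and 8 against 4 and 3 for RELB, and the 2 and the 1 came from the short lists. With NFKB2, FOXA1 had 2 peaks in each knockdown library and 3 in each control library. In the lower direction, KRT8 with RELA had 0.948 and 1.02 per 100000 against 2.28 and 1.16 in the controls (1 and 7 peaks against 12 and 6). PGR with RELB had 3.996 and 3.44 against 4.31 and 4.95, a small difference (3 and 19 peaks against 24 and 26). TFF1 with RELB had 0 and 0.362 against 0.718 and 0.953 (0 and 2 peaks against 4 and 5). The first knockdown number of KRT8, PGR and TFF1 here (1, 3 and 0 peaks) came from the short lists. No test per gene was made between conditions.

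The last question was whether the antibodies differed. The luminal share was 28.3 ± 4.46 per 100000 for RELA, 31.0 ± 2.69 for RELB and 32.8 ± 2.89 for NFKB2 (n = 4 each). The gap between the highest and the lowest antibody, within preparations, was 0.22 on the log2 scale. The order rested on ESR1: without ESR1, RELA was highest and NFKB2 lowest, with a gap of 0.27.

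For ESR1 alone, control replicate 1 had 13.7 (RELA), 15.8 (RELB) and 18.1 (NFKB2) peaks per 100000, and control replicate 2 had 8.69, 14.7 and 18.2. Knockdown replicate 1 had 11.4, 17.3 and 18.6, and knockdown replicate 2 had 15.5, 19.0 and 23.2. RELA was lowest and NFKB2 highest in all 4 preparations, with means of 12.3 ± 2.95, 16.7 ± 1.88 and 19.5 ± 2.48 (n = 4). The same order in all 4 was seen for 0.274% of all genes and for 5 of the 200 genes of like length (2.5%). NFKB2 was highest in all 4 for 4.1% of all genes and for 26 of the 200 like-length genes. An exact one-sided permutation test of the ESR1 gap, with antibody names permuted within preparations, gave p = 0.00463, the smallest this design allows. The Benjamini-Hochberg adjusted p over all 20037 genes was 0.436, so ESR1 did not pass, and this pattern was picked out after its values were seen.

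Across all genes, 0 passed an adjusted p of 0.05 in that exact permutation test, and 9.26% had an unadjusted p under 0.05. The design left little room for a pass, since 1856 genes would have to be at the smallest p and 212 were. XBP1 had an exact permutation p of 0.0463 (adjusted 0.5), and the other 8 luminal genes had an unadjusted p of 0.0602 (KRT18) to 0.713 (KRT8). The lists also differed in length between antibodies, and the part of that in the ESR1 order was not tested.

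**Figure D5:**
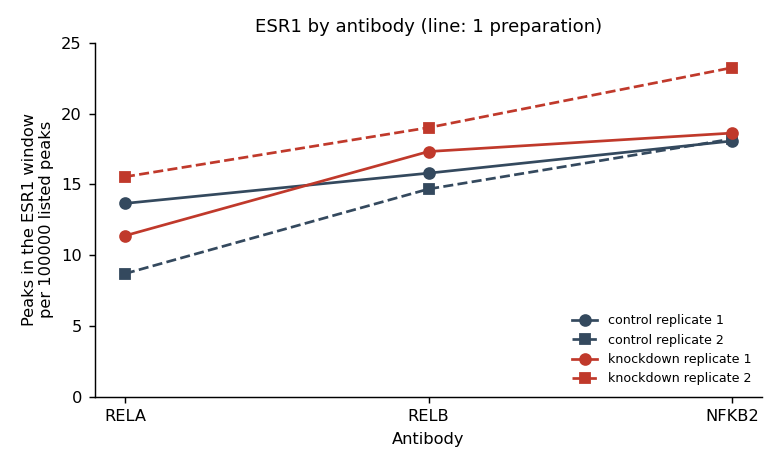
Peaks in the ESR1 window per 100000 listed peaks (vertical axis) by antibody, with 1 line for each of the 4 preparations, control in blue-grey and knockdown in red. Each line rises from RELA to RELB to NFKB2, from means of 12.3 to 16.7 to 19.5.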

How the data were processed

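ChIP-seq libraries of 12 immunoprecipitations and 4 inputs from T47D cells were used through the deposited MACS2 peak lists, 1 per immunoprecipitation. Per the submitters' processing notes, the authors used CASAVA 1.8, BWA 0.7.12, MACS2 2.1.0 and DiffBind on hg38. Peaks were called per library, and the caller's settings are not given in the sources used here. The deposited positions are in base pairs. The deposited score was not needed beyond a check of the format. The deposited ratio is MACS2's fold enrichment, taken at each summit against the local background. The deposited −log10 p-value and −log10 q-value are the peak caller's and were used to filter and rank peaks within their own list. DiffBind results were not used here.

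A peak was counted for a gene when it shared at least 1 bp with its window, and intervals listed again for several summits were counted once (563 removed). Gene spans, promoters and names came from RefSeq tables of GRCh38.p14. All genes of the luminal and the other lists matched by symbol. The 200 like-length genes were those nearest in window length, with the 10 members left out. Merged regions left out intervals over 5 kb. Fragments were recovered by solving MACS2's fold enrichment (pseudocount of 1) and Poisson p-value, and called whole within 0.005 of the deposited −log10 p. The lists give no read totals, so sequencing depth is unknown.

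Groups came from the sample titles. Libraries were compared as log2 ratios of geometric means, and antibodies by exact permutation within preparations, adjusted over all genes. Windows and fragment recovery were tested on simulated data. All 10 genes were named, with the merged regions called in the most preparations, the peak of smallest p of each gene and the lowest and highest genes of a comparison list. ESR1's antibody order and the FOXA1 values were singled out after they were seen. The members, lists and tests were chosen with earlier results of these data known, so no p is given for counts summed over the members. Replicate numbers were not used to pair knockdown with control libraries in the main comparisons. Deviations of same-numbered libraries from their group means correlated across genes at 0.0066 to 0.072. With so few peaks per gene, such values cannot tell whether same-numbered libraries were made together. The tools were scipy 1.17.1, pandas 2.3.3 and numpy 2.4.6, with figures by matplotlib 3.10.9, under Python 3.11.15.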

Additional observations from a re-analysis of the deposited data

Results flagged for a closer look

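At FOXA1 the direction of the change with DAB2IP knockdown differed between antibodies. The knockdown mean minus the control mean, in peaks per 100000 listed peaks, was 1.12 with RELA and 0.75 with RELB, and −0.11 with NFKB2. Both knockdown libraries were above both controls with RELA and RELB, and both were below with NFKB2. These orders were seen for 11.8% (RELA), 12% (RELB) and 13.5% (NFKB2) of all genes. In peaks the RELA and RELB groups overlapped, and NFKB2 had 2 in each knockdown library and 3 in each control library. The difference between antibodies was not tested. The values come from 1 to 9 FOXA1 peaks per library, and the lowest knockdown numbers, 2 with RELA and 1 with RELB, came from the short lists.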

How the results depend on the processing

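Each value was recomputed under other thresholds, windows, scalings and sets of libraries, and 114 of these recomputed values kept their direction, or stayed within 1.5 times for a count. Of the others, 7 were reversed, 7 were counts that moved further, and 3 were antibody gaps that kept their order. The antibody gap has no sign, and the 114 include settings in which the highest or the lowest antibody changed. With the 20000 smallest p-values of each list, the knockdown over control log2 ratio was −0.71 (RELA), −0.15 (RELB) and 1.16 (NFKB2), while the antibody gap of 0.65 had NFKB2 lowest and RELB highest. At a −log10 p of at least 3 the NFKB2 ratio was 0.90, and RELB was the highest antibody (gap 0.60). RELB was the lowest with a 50 kb flank (gap 0.096) and without scaling to list length (gap 1.06). Without scaling to list length, an alternative chosen after seeing the data, the ratio was −0.71 for RELA, −1.25 for RELB and −0.63 over preparations, which by construction carries the lengths of the short knockdown lists (105534 and 75078 peaks), and 0.058 for NFKB2. Without ESR1 the antibody order turned, with a gap of 0.27. The antibody gap was 0.29 with no flank, 0.28 without control RELA replicate 1 and 0.22 without control RELB replicate 2, with NFKB2 highest and RELA lowest in each. The cause of the other shifts was not tested. With 4 of 10 genes above their like-length medians instead of 2, the counts were higher for the 20000 smallest p-values, for no flank, for a 50 kb flank, for like-length genes of the same chromosome, and for libraries scaled to list length (added after seeing the data). Without knockdown RELA replicate 2 or knockdown RELB replicate 2 the count was 1.

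Leaving out each library in turn gave RELA ratios of 0.00089 to 0.50, RELB ratios of 0.075 to 0.25, NFKB2 ratios of 0.19 to 0.25 and ratios over preparations of 0.13 to 0.28, antibody gaps of 0.12 to 0.28, counts of 1 to 3 genes, and log2 density ratios of −0.17 to −0.10. The lowest RELA ratio was without control RELA replicate 2 and the highest without control RELA replicate 1. With the replicate number as a block, the ratios were unchanged at 0.25, 0.16, 0.22 and 0.21, and the exact sign-flip test of 2 pairs cannot give a p below 0.5. The count of genes with a peak at a q of at most 0.05 was 0 in each setting tried. All luminal peaks had a q of 1, and those with a recovered fragment number had at most 8 fragments. This limits the precision of all these values, and the read depth is unknown.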
